A study of Mus musculus with 12 samples.

Results

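Untagged background is the DNA that a pull-down recovers from tissue without the tagged protein. It was described here in brown adipose tissue of wild-type (WT) C57BL/6 mice that went through the same pull-down on anti-HA magnetic beads as mice with HA-tagged Rev-Erbα, the nuclear receptor encoded by Nr1d1. The mice were housed for 1 week at 4 °C, called chronic cold in the labels, or at 29 °C, called thermoneutrality. WT mice gave 2 libraries at each temperature and HA-RevErbα mice 4 at each, so 4 of the 12 libraries are WT. How the HA tag was introduced, the age and sex of the mice and whether each library is 1 animal are not stated in the sources used here. The members were all 200 bp windows of the 2 deposited lists of Rev-Erbα sites, 11227 in the 4 °C list and 2183 in the 29 °C list, or 13410 rows. Windows of the 2 lists that overlapped by at least 1 bp were counted once, with the row of the 4 °C list kept, which left 11740 windows. Of these, 1670 were shared, 9557 belonged to the 4 °C list alone and 513 to the 29 °C list alone.

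In chromatin immunoprecipitation, beads retain some DNA that carries no tagged protein, and accessible chromatin such as active promoters and enhancers is known to be recovered more readily than closed chromatin. A pull-down from untagged mice measures that component, and peak lists are commonly filtered against it. Rev-Erbα itself represses transcription within the circadian clock, and it binds clock genes such as Npas2, Cry1 and Arntl as well as its own gene.

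The promoters below are shown because Nr1d1 and Vwa8, which encodes a mitochondrial ATPase, had the highest WT level over both temperatures among windows of the 4 °C list within 150 bp of a start site whose gene had 1 promoter in the RefSeq table, and Klhl6, which encodes a Kelch-like protein of lymphoid cells, had the lowest. Each is the 250 bases before the start site in GRCm38.p6 as RefSeq gives it, a later build than the mm9 of the peak lists, and capitals mark CG dinucleotides. Nr1d1 is on the minus strand at chr11:98775378-98775627, Vwa8 on the plus strand at chr14:78848928-78849177 and Klhl6 on the minus strand at chr16:19983050-19983299.
Nr1d1: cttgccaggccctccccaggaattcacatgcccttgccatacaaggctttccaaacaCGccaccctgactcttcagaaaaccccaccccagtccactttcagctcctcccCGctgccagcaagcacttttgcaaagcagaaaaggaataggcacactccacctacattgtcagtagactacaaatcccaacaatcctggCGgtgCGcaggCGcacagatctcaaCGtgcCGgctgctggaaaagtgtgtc
Vwa8: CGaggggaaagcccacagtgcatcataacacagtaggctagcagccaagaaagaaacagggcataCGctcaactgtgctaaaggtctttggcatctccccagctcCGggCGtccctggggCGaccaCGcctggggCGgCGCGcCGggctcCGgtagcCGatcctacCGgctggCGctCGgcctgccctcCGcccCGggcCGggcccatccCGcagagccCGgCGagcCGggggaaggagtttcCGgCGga
Klhl6: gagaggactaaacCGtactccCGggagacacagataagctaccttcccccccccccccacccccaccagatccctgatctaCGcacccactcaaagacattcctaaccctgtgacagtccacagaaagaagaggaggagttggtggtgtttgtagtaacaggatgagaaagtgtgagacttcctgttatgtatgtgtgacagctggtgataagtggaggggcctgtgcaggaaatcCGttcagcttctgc
The Nr1d1 stretch holds 7 CG dinucleotides, the Vwa8 stretch 24 and the Klhl6 stretch 4. None of the 3 holds AGGTCA, the half-site that Rev-Erbα is known to bind, on either strand. The Nr1d1 window had 2.96 FPKM in WT at 4 °C and 4.79 at 29 °C, and that of Vwa8 had 3.14 and 4.20. The Klhl6 window had 0.56 FPKM at 4 °C, which is 3 reads, and no read at 29 °C.

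All window values came from pools, 1 for each genotype and temperature, so no spread between libraries is known and no difference between temperatures could be tested. FPKM here divides the reads in a window by its length in kb and by the pool's total reads in M (mega). One read was worth 0.184 FPKM in the WT 4 °C pool of 27.1 M reads and 0.199 FPKM in the WT 29 °C pool of 25.1 M reads. The median window of the 4 °C list rested on 6 reads in each WT pool, and that of the 29 °C list on 8 reads at 4 °C and 4 at 29 °C. A window with no read allows up to 3 reads, or 0.553 FPKM at 4 °C and 0.598 at 29 °C. Aligned reads numbered 32.6 and 29.2 M in the cold WT libraries, against 27.4 and 36.1 M in the thermoneutral ones. This difference was within the spread of the libraries (exact two-sided permutation test, p = 1, with 0.333 the smallest p that 6 splits allow). Unaligned reads made up 7.37% and 2.88% of the cold WT libraries, and 3.19% and 3.01% of the thermoneutral ones. The part of the library with 7.37% in the pooled window values is not known. Ratios are 4 °C over 29 °C, as reads per pool read, with exact 95% Clopper-Pearson intervals, and levels have 95% Poisson intervals. Both cover counting error only.

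Each list was limited by its own WT pool. The lowest fold of HA-RevErbα over WT was 3.99 in the 4 °C list, at Mknk1, and 3.97 in the 29 °C list, at Gm15326, and the smallest differences were 3 and 3.01 FPKM. WT signal at the temperature of the list therefore could not pass about 25% of the HA-RevErbα signal. Its median share was 16% in the 4 °C list (10th to 90th percentile, 6.71 to 23.0) and 14.0% in the 29 °C list (5 to 22.8). The WT pool of the other temperature had no such limit. Against HA-RevErbα of its own temperature it had a median share of 45.9% in the 4 °C list (13.4 to 114) and 14.4% in the 29 °C list (5.14 to 33.9).

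**Figure D1:**
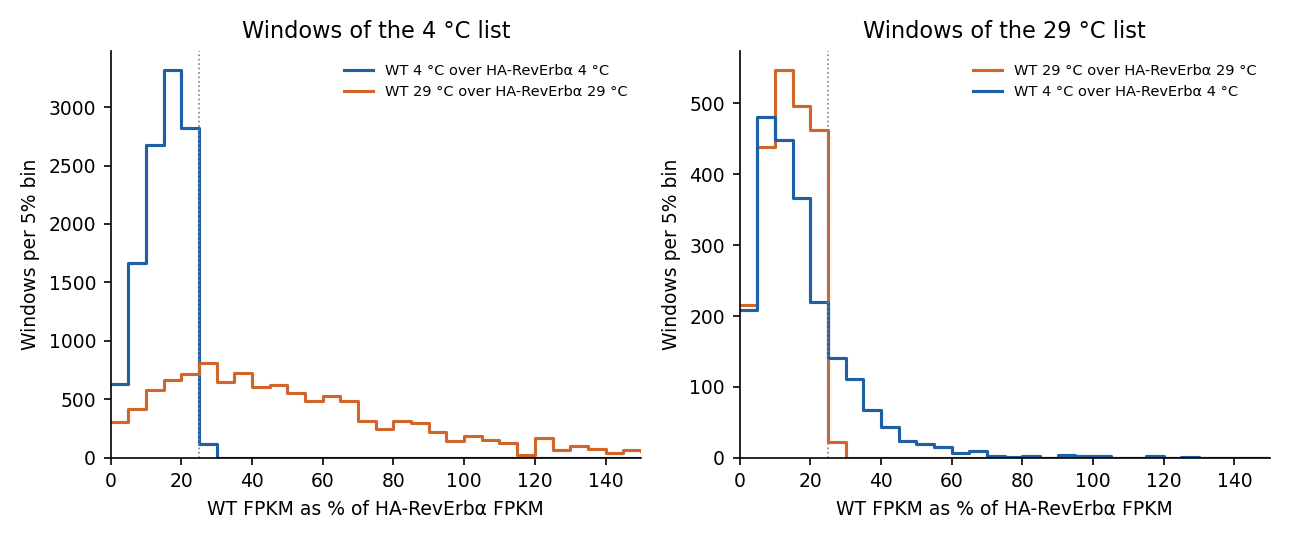
WT FPKM of a window as percent of HA-RevErbα FPKM at the same temperature (x axis) against the number of windows per 5% bin (y axis), for the 4 °C list (left) and the 29 °C list (right), with 4 °C in blue, 29 °C in orange and a dotted line at 25%. The WT share at the temperature of the list ends at that line, with medians of 16% and 14.0%, while the share at the other temperature runs past it.

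The change in WT signal with temperature depended on the list. WT means over the 4 °C list were 1.26 FPKM in the cold and 1.24 at 29 °C, which gave a ratio of 1.02 (1.01 to 1.03). Over the 29 °C list they were 1.62 and 0.955 FPKM, and the ratio was 1.71 (1.67 to 1.75). Shared windows had means of 1.56 and 1.09 FPKM and a ratio of 1.44 (1.40 to 1.48). Windows listed at 29 °C only had 1.82 and 0.641 FPKM, a ratio of 2.87 (2.71 to 3.04). Windows listed at 4 °C only had 1.21 and 1.26 FPKM and a ratio of 0.954 (0.944 to 0.965), which became 1.06 (1.05 to 1.07) when the pools were scaled by the aligned reads of their libraries. That scaling raised every ratio 1.11 times, or by 0.15 on the log2 scale, since the pools held 43.9% of the aligned WT reads at 4 °C and 39.5% at 29 °C. Over all 11740 windows the ratio was 1.06 (1.05 to 1.07).

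The ratios of the 2 lists approached each other as HA-RevErbα signal rose. The ratio of the 29 °C list went from 2.46 (2.35 to 2.58) in the 865 windows of 3 to 5 FPKM to 1.40 in the 376 windows of 7 to 10 FPKM and 1.10 (0.929 to 1.31) in the 22 windows of 30 FPKM or more. For the 4 °C list it was 0.724 (0.704 to 0.744) in the 2710 windows of 3 to 5 FPKM, 1.04 in the 2682 windows of 7 to 10 FPKM and 1.19 (1.11 to 1.28) in the 131 windows of 30 FPKM or more. In windows of at least 20 FPKM of HA-RevErbα, where the limit lay well above most WT values, the ratio was 1.16 (1.11 to 1.21) over 440 windows of the 4 °C list and 1.12 (1.02 to 1.23) over 95 windows of the 29 °C list. There the WT means were 2.25 FPKM at 4 °C and 1.94 at 29 °C in the 4 °C list, and 2.11 and 1.89 in the 29 °C list. All 95 windows of the second set were also in the 4 °C list, so the sets are not independent.

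**Figure D2:**
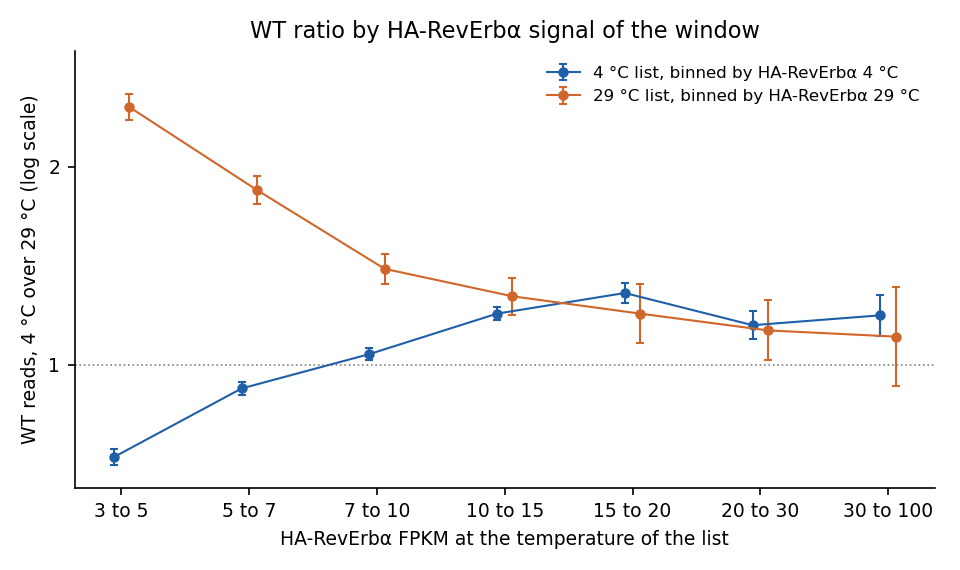
Ratio of WT reads per pool read, 4 °C over 29 °C (y axis, log scale), in windows grouped by HA-RevErbα FPKM at the temperature of the list (x axis), for the 4 °C list (blue) and the 29 °C list (orange), with 95% counting intervals as bars. The lists stand at 0.724 and 2.46 in the lowest group and at 1.19 and 1.10 in the highest.

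The windows of each list had been chosen on low WT signal at its own temperature, so the counts that follow describe that choice and are no test of it. Of the 513 windows listed at 29 °C only, 64 (12.5%) met both list limits at 4 °C against the WT 4 °C pool, and 356 (69.4%) met them when the same HA-RevErbα 4 °C values were set against the WT 29 °C pool. In 220 of these windows the 4 °C values missed the fold limit alone. Conversely, 138 of the 513 (26.9%) met the limits at 29 °C with the WT 4 °C pool in place of the WT 29 °C pool. Of the 11227 windows of the 4 °C list, 9155 (81.5%) met the limits with the WT 29 °C pool, and of the 9557 listed at 4 °C only 260 (2.72%) met them with HA-RevErbα of 29 °C over WT of 4 °C and 99 (1.04%) with HA-RevErbα of 29 °C over WT of 29 °C.

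In the 4 °C list promoters carried more background than introns and intergenic windows. The 429 promoter windows of the 4 °C list had WT means of 1.38 FPKM (1.34 to 1.43) at 4 °C and 1.49 (1.44 to 1.54) at 29 °C. The 4976 intergenic windows had 1.25 (1.23 to 1.26) and 1.22 (1.20 to 1.23), and the 5370 intron windows 1.26 (1.25 to 1.27) and 1.23 (1.22 to 1.24). HA-RevErbα at 4 °C was alike in these classes, with means of 8.62, 8.66 and 8.72 FPKM. Of the smaller classes, 144 transcript ends had 1.37 and 1.32 FPKM and 39 non-coding windows 1.37 and 1.57. Promoters of the 29 °C list had 2.02 and 1.04 FPKM, its intergenic windows 1.62 and 0.951, its introns 1.60 and 0.961, and its 7 non-coding windows 2.14 and 1.44. At 29 °C the level of its promoters over its intergenic windows was 1.10 (0.979 to 1.23), an interval that includes 1. Among windows of the 4 °C list with at least 20 FPKM of HA-RevErbα, 19 were promoters. Their level over that of intergenic windows was 0.990 (0.862 to 1.13) at 4 °C and 1.11 (0.953 to 1.28) at 29 °C. Both intervals include 1 and also the level of the whole list, 1.11 at 4 °C and 1.23 at 29 °C. They do not settle whether an excess held in these windows. The 61 windows that the authors' annotation places in CpG islands, stretches rich in CG dinucleotides, had 1.51 FPKM (1.38 to 1.64) at 4 °C and 1.72 (1.58 to 1.87) at 29 °C. HA-RevErbα at 4 °C was higher there too, with a mean of 9.90 FPKM. Within 100 bp of a start site the 139 windows had 1.3 and 1.49 FPKM, and the 1858 windows more than 100 kb away had 1.14 and 1.12.

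Repeats carried less. The 1520 windows of the 4 °C list that lie in annotated repeats had 1.13 FPKM (1.11 to 1.15) at 4 °C and 1.09 (1.07 to 1.11) at 29 °C, against 1.28 and 1.26 in the other 9707 windows. HA-RevErbα at 4 °C was lower in repeats too, 8.12 against 8.75 FPKM, and its part in the WT level was not tested. Among repeat classes the 575 windows in LTR elements, the remains of retroviruses, had 1.03 and 1.04 FPKM, and the 371 windows in LINE elements 1.18 and 1.12. HA-RevErbα at 4 °C averaged 7.84 FPKM in each of these classes. Windows with neighbours carried more than lone ones. Those with at least 2 other windows of the list within 10 kb (n = 1386) had 1.49 and 1.40 FPKM, and those with none (n = 6664) 1.16 and 1.17, with HA-RevErbα at 4 °C of 10.6 and 7.85 FPKM.

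Among introns, intergenic windows and promoters, the temperature ratio differed less between classes than between lists. Over the 4 °C list it was 1.02 (1.01 to 1.04) for intron and 1.02 (1.01 to 1.04) for intergenic windows, and 0.928 (0.883 to 0.975) for promoters, which became 1.03 on the scale of aligned reads. CpG island windows had 0.875 (0.772 to 0.991), and 0.971 (0.857 to 1.10) on that scale, where the interval includes 1. Ratios in the 29 °C list were 1.95 (1.71 to 2.22) for 65 promoter windows, 1.71 (1.65 to 1.77) for 998 intergenic and 1.67 (1.61 to 1.73) for 1049 intron windows. The order of promoters and introns was thus opposite in the 2 lists. Shared windows were read in the row of the 4 °C list, where 1436 of 1670 (86.0%) met the limits at 29 °C as well. In these 1670 windows promoters had 1.47 (1.26 to 1.71), intergenic windows 1.44 (1.39 to 1.5) and introns 1.43 (1.37 to 1.48). These intervals overlapped. The 20 transcript ends among the shared windows had 1.99 (1.53 to 2.60), above the intervals of introns and intergenic windows.

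**Figure D3:**
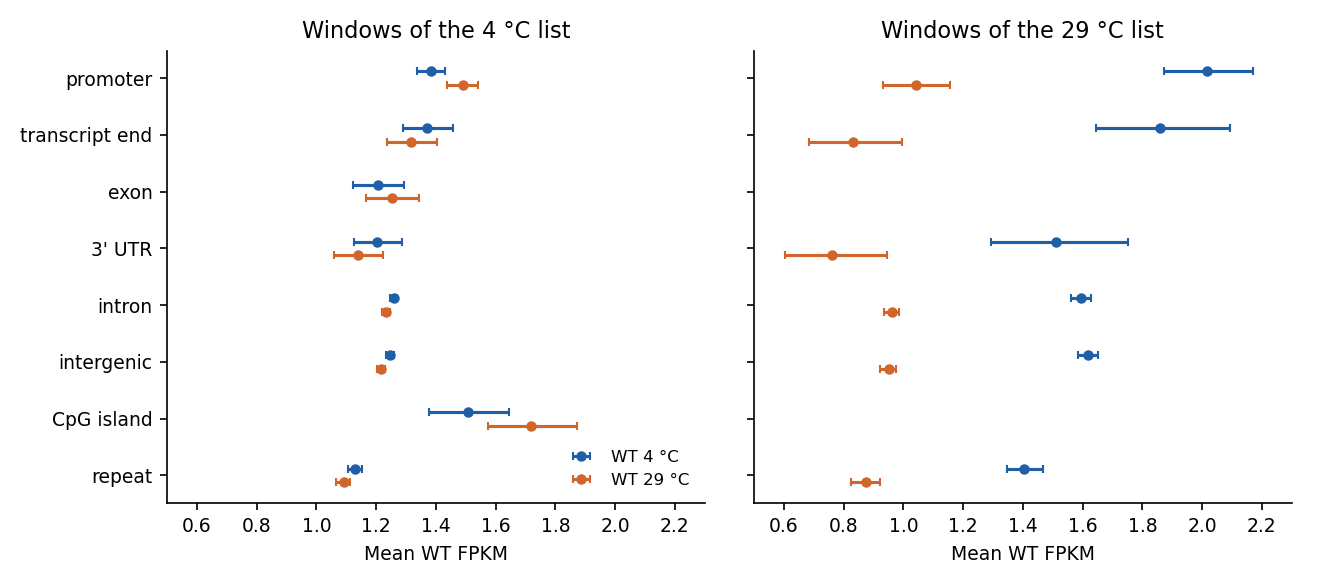
Mean WT FPKM (x axis) of windows by annotation class (y axis) in the 4 °C list (left) and the 29 °C list (right), at 4 °C in blue and at 29 °C in orange, with 95% counting intervals as bars and classes of under 20 windows left out. Promoters and CpG islands lie to the right of repeats in the 4 °C list, and in the 29 °C list every class has the 4 °C value above the 29 °C value.

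Of 198 windows of the 4 °C list within 150 bp of a start site, 112 matched a gene with 1 promoter in the RefSeq table. Their 250 bases before the start held a median of 12 CG dinucleotides, against 6 over the 32851 promoters of the table. The 40 windows with at least 16 had WT means of 1.14 FPKM (1 to 1.29) in the cold and 1.6 (1.43 to 1.78) at 29 °C, and their ratio was 0.712 (0.6 to 0.844). The 34 windows with at most 5 had 1.32 and 1.31 FPKM, a ratio of 1 (0.833 to 1.21). HA-RevErbα at 4 °C was lower in the CG-rich windows, 6.45 against 8.15 FPKM, so the limit on WT 4 °C was lower there as well. Across the 112 windows, which share both pools, Spearman's rho between the number of CG dinucleotides and WT FPKM was 0.04 at 29 °C and -0.14 at 4 °C, and with HA-RevErbα at 4 °C it was -0.34. The half-site AGGTCA, searched on both strands, was in 16 of the 112 stretches (14.3%) and in 14.0% of all promoters of the table. Windows whose matched stretch held it had 0.995 FPKM ± 0.53 (SD over 16 windows) in WT at 29 °C, and the others 1.55 ± 0.93. At 4 °C the means were 1.3 and 1.25. The stretches are not the windows, whose own sequences were not read.

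Background was lower on the X chromosome. The 151 windows of the 4 °C list on X had WT means of 0.715 FPKM (0.659 to 0.775) at 4 °C and 0.644 (0.587 to 0.702) at 29 °C, or 56.5% and 51.7% of the autosomal means. HA-RevErbα there was at 70.3% and 77.1% of its autosomal means. The 19 autosomes ran from 1.17 (chromosome 15) to 1.38 FPKM (chromosome 11) at 4 °C, and from 1.17 (chromosome 13) to 1.37 (chromosome 11) at 29 °C. Of the 29 °C list, 26 windows on X were at 56.3% and 49.8% of the autosomal WT means. The ratio on X was 1.12 (0.987 to 1.26) in the 4 °C list, where the autosomes together had 1.02. The sources used here do not state the sex of the mice.

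**Figure D4:**
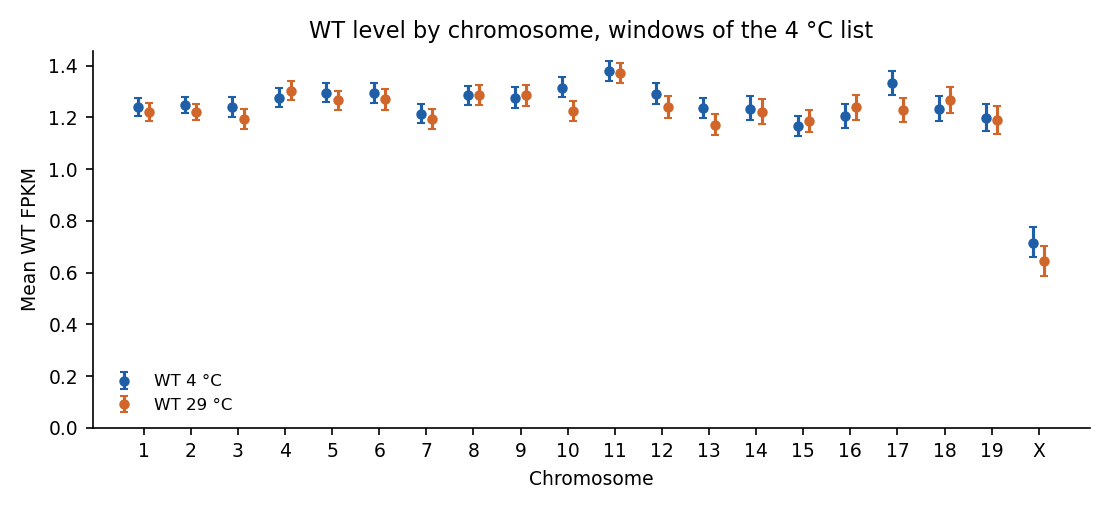
Mean WT FPKM (y axis) of the windows of the 4 °C list by chromosome (x axis), at 4 °C in blue and at 29 °C in orange, with 95% counting intervals as bars. The X chromosome, at 0.715 and 0.644 FPKM, lies below every autosome.

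Most windows with high background lay in introns or between genes, as did most of the whole 4 °C list (5370 and 4976 of 11227). At 4 °C the highest in the 4 °C list was in intron 3 of Zbtb16 (chr9:48548310-48548510), which encodes the transcription factor PLZF, with 5.91 FPKM in WT at 4 °C and 3.4 at 29 °C, beside 24.4 and 11.8 FPKM of HA-RevErbα. Intron 2 of Pigl, an enzyme of GPI anchor synthesis, followed with 5.35 and 3 FPKM, and intron 17 of Tbc1d1, a Rab GTPase-activating protein, with 5.17 and 3.8. A window at -20.3 kb from the start of Plin2, which encodes a lipid droplet coat protein, had 4.99 and 4.00 FPKM. The first-kilobase window of Cdkn1a, the gene of the cell cycle inhibitor p21, lies in a CpG island and had 4.99 and 3.20 FPKM. The 10 highest at 4 °C, picked on that value, all had less WT signal at 29 °C, which the choice favours, and the interval of the ratio lay above 1 in 2 of them, Pomgnt2 and Nr1d1.

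At 29 °C the highest window of the 4 °C list was at -5.37 kb from Fabp4 (chr3:10213841-10214041), the gene of the adipocyte fatty acid carrier, with 3.51 FPKM in WT at 4 °C and 5.59 at 29 °C, beside 25.3 and 7.33 FPKM of HA-RevErbα. At 29 °C the WT signal there came to most of the HA-RevErbα signal. A window far upstream of Irf2bp2, which encodes a transcriptional corepressor, had 3.88 and 4.99 FPKM. One at -2.58 kb from Txnip, the gene of the thioredoxin-interacting protein, had 4.80 and 4.59. The promoter window of Ppp1r15b, whose product helps dephosphorylate eIF2α, had 4.43 and 4.39 FPKM in WT, and HA-RevErbα there had 17.8 FPKM at 4 °C and 2.72 at 29 °C, which is below WT. Of these 10 windows 2 were promoters, and of the 10 highest at 4 °C none was.

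Only Ergic1 and Nr1d1 were among the 10 highest at both temperatures in the 4 °C list. For Ergic1, which encodes a protein of the ER-Golgi intermediate compartment, it was the same window, with 4.99 and 4.39 FPKM. For Nr1d1 the window at 4 °C lay at -8.14 kb (4.99 and 1.80 FPKM; ratio 2.77, 1.27 to 6.70) and the window at 29 °C on the promoter shown above (2.96 and 4.79 FPKM; ratio 0.616, 0.306 to 1.21). Of the 112 windows in the top 1% at each temperature, 28 (25%) were in both. Across the windows of the 4 °C list WT at 4 °C and WT at 29 °C had a Spearman's rho of 0.43, and across those of the 29 °C list 0.37. WT at 29 °C followed HA-RevErbα at 4 °C with a rho of 0.41 in the 4 °C list, and WT at 4 °C followed HA-RevErbα at 29 °C with 0.20 in the 29 °C list. At the temperature of the list, where HA-RevErbα bounded WT, the rho between them was 0.72 in the 4 °C list and 0.62 in the 29 °C list. These points share pools and the choice of list, and most rest on few reads.

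**Figure D5:**
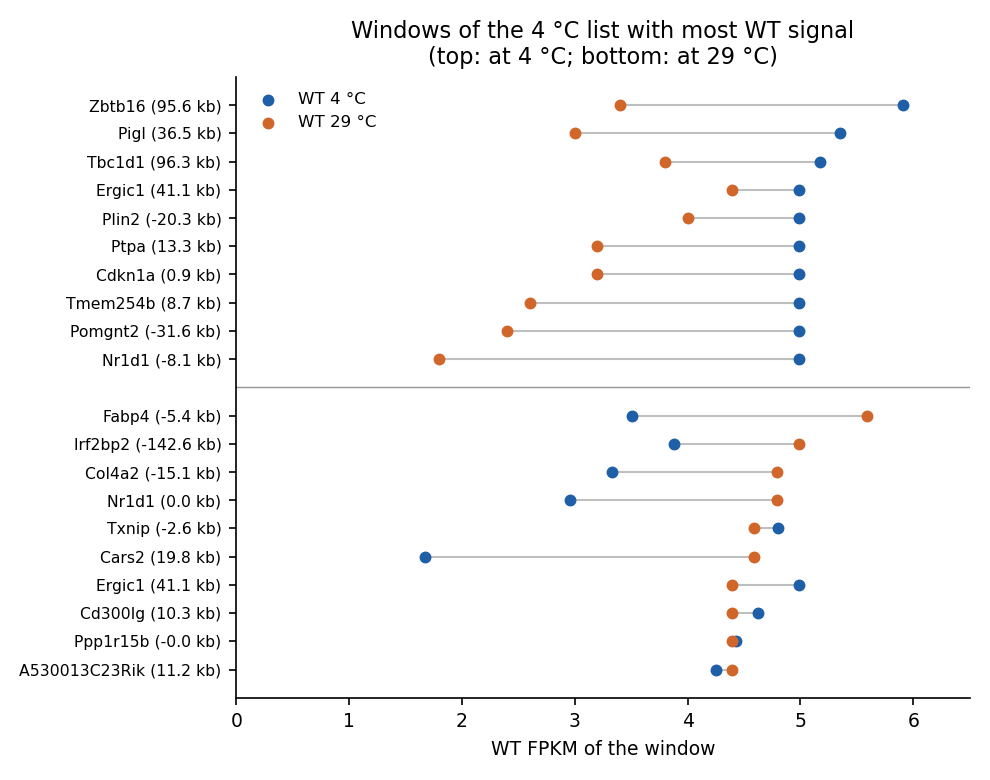
WT FPKM (x axis) at 4 °C (blue) and 29 °C (orange) of the 10 windows of the 4 °C list with the highest WT FPKM at 4 °C (upper group) and at 29 °C (lower group), labelled by nearest gene and distance from its start. The upper group has its 4 °C values from 4.99 to 5.91 and the lower group its 29 °C values from 4.39 to 5.59.

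The highest WT value at 4 °C in the 29 °C list was again at the Cdkn1a site, with 5.35 and 2.80 FPKM (ratio 1.91, 0.980 to 3.92), and the Pigl site was also among its 10 highest. A window at -30.2 kb from Noct, the gene of the rhythmic protein nocturnin, had WT values of 5.17 and 0.61 FPKM and a ratio of 8.63 (2.66 to 44.3), and another at -11.7 kb had 1.48 and 2.40 FPKM (0.616, 0.219 to 1.64). Windows at Calu, which encodes a calcium-binding protein of the ER, and Pigl had a ratio of 3.24 each (1.44 to 8.21). Among the 10 highest at 29 °C were an Irf2bp2 window (ratio 0.809, 0.428 to 1.52), the Nr1d1 promoter (0.732, 0.379 to 1.39) and intron 1 of Cry1, a repressor of the clock (4.43 and 3.4 FPKM; 1.31, 0.672 to 2.59). Gmpr, the gene of GMP reductase, was the gene with a window among the 10 highest at both temperatures, with 4.80 and 3.6 FPKM.

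Few single windows of the 4 °C list differed between the WT pools beyond counting error. In the 4 °C list 7514 windows had at least 10 WT reads over both pools, of which 960 (12.8%) were at least 2 times higher at 4 °C and 830 (11.0%) at least 2 times lower. Higher windows made up 53.6% of those past the fold, and 66.3% on the scale of aligned reads. The counting interval lay above 1 in 211 (1.88%) of all 11227 windows and below 1 in 188 (1.67%). Counting error alone may put up to 5% of windows outside such intervals. These counts therefore do not show that single windows of the 4 °C list differed. Of 1527 such windows of the 29 °C list, 692 (45.3%) were at least 2 times higher at 4 °C and 29 (1.90%) at least 2 times lower. There the interval lay above 1 in 281 of 2183 (12.9%) and below 1 in 1 (0.0458%), at Cars2. That list had been chosen on low WT signal at 29 °C, which favours ratios above 1.

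Among windows of at least 20 WT reads, 1643 in the 4 °C list and 382 in the 29 °C list, the largest ratio in both was in intron 8 of Gpatch2 (chr1:189158222-189158422), with 20 reads at 4 °C (3.70 FPKM) and none at 29 °C. The exact interval makes this at least 4.56-fold higher, and against a floor of 3 reads in that window it is 6.16-fold. HA-RevErbα was 19.5 and 17.6 FPKM there. A window at -7.03 kb from 4930449E18Rik followed in the 4 °C list with 3.51 and 0.61 FPKM (ratio 5.85, 1.72 to 30.9). Intron 7 of Vps53, which encodes a subunit of a Golgi tethering complex, had 3.33 and 0.61 FPKM (5.55, 1.62 to 29.4). An LTR window of the 29 °C list near Faap100, a gene of the Fanconi anaemia complex, had 20 reads against 1 (ratio 18.5, 2.96 to 766). Windows near Cdkn1c, Dmp1, Bcl7a and Fam84b had 19 reads against 1 each (17.6, 2.79 to 730).

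The 10 smallest ratios of the 4 °C list were at windows where WT at 29 °C was high, which the choice favours. HA-RevErbα at 4 °C ran from 4.40 to 13.7 FPKM in them. A window at -92.3 kb from Mdm1 (chr10:117486467-117486667) had WT values of 0.56 and 3.8 FPKM (0.146, 0.0277 to 0.496). A 3' UTR window near Romo1, which encodes a mitochondrial membrane protein, had 0.56 and 3.4 FPKM (0.163, 0.0306 to 0.564). A window at the promoter of Tmem254b had 0.93 and 4.20 FPKM (0.220, 0.0648 to 0.6). Tmem254b has near-identical copies on chromosome 14, with windows at like distances from 3 start sites, so its reads may be split among copies and its values are uncertain. The smallest ratio of the 29 °C list was in intron 6 of Cars2, the gene of mitochondrial cysteinyl-tRNA synthetase, with 1.67 and 4.59 FPKM (0.362, 0.147 to 0.811), beside 53.6 and 23.9 FPKM of HA-RevErbα. The same site was in the 4 °C list, with the same WT values.

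WT signal exceeded HA-RevErbα signal in some windows at the temperature outside their list. In the 4 °C list this was so at 29 °C in 1521 windows (13.5%). All of them were listed at 4 °C only, which the limits of the 29 °C list favour. Their WT means were 1.02 FPKM at 4 °C and 1.67 at 29 °C, beside HA-RevErbα means of 6.12 and 1.21. Picking windows on these 29 °C values favours high WT and low HA-RevErbα there, so the means describe that choice. By class, WT exceeded HA-RevErbα at 29 °C in 17.9% of promoter, 13.0% of intergenic and 13.5% of intron windows. The share was 40% of the 40 promoters with at least 16 CG dinucleotides. The promoter of Surf6, which encodes a nucleolar protein, had 4.00 FPKM in WT at 29 °C against 1.41 in HA-RevErbα, and 1.3 against 9.50 at 4 °C. An intron window of Elovl6, a fatty acid elongase, had 4.00 against 1.82 at 29 °C, and 1.85 against 9.89 at 4 °C. These 2 genes were picked after their values were seen. WT exceeded HA-RevErbα at 4 °C in 7 windows of the 29 °C list, near Arhgap29, Pnpla5, Grhl2, Filip1l, Fam84b, 5430421F17Rik and Neurl1a, of which Arhgap29 had 2.41 against 1.42 FPKM.

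Genes of high activity in brown fat had a WT level above that of all windows of the 4 °C list. Of 20 such genes, 19 had a window there, 58 windows in all, with WT means of 1.84 FPKM ± 0.90 (SD over windows) at 4 °C and 1.66 ± 1 at 29 °C, beside 1.26 and 1.24 over all 11227 windows. HA-RevErbα at 4 °C was higher in these windows too, 11.7 FPKM on average against 8.66 over all, and its part in the WT level was not tested. The ratio was 1.11 (0.979 to 1.25), and of 50 windows with at least 10 reads 4 were at least 2 times higher and 3 lower at 4 °C, next to the 12.8% and 11.0% over all windows. Beside Fabp4, a window near Cd36, the fatty acid translocase, had 3.70 and 4.20 FPKM and one at Lipe, hormone-sensitive lipase, 2.77 and 3. A window at -14.0 kb from Lpl, lipoprotein lipase, had 1.3 and 4.20 FPKM. The window at -4.76 kb from Ucp1, the uncoupling protein of thermogenesis, had 3.51 and 1.41 FPKM. The 29 °C list held 10 windows at 5 of the 20 genes, with means of 1.98 and 1.27 FPKM and a ratio of 1.57 (1.14 to 2.18).

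Of 21 housekeeping genes, 8 had a window in the 4 °C list, 10 in all, with WT means of 1.76 FPKM ± 1.18 at 4 °C and 1.39 ± 0.46 at 29 °C. The Eef2 promoter, of the translation elongation factor, had 3.51 and 1.41 FPKM. Of the 7 windows with at least 10 reads 1 was at least 2 times higher and 1 lower, 14.3% each, near the 12.8% and 11.0% over all such windows. As for the 29 °C list, 4 housekeeping genes had 1 window each, with means of 2.50 and 1.55 FPKM.

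Core clock genes held 54 windows of the 4 °C list at 16 of 19 genes, with WT means of 1.67 FPKM ± 0.93 at 4 °C and 1.59 ± 0.88 at 29 °C and a ratio of 1.05 (0.918 to 1.20). Mean HA-RevErbα at 4 °C was 16.6 FPKM in these windows and 8.74 in those of the immediate early and stress genes. At their strongest Rev-Erbα sites WT was a small part of the signal. The Npas2 window had 4.06 FPKM in WT at 4 °C and 3 at 29 °C, beside 84.1 and 61.7 of HA-RevErbα, and that of Cry1 4.25 and 3.4 beside 78.2 and 35.9. Arntl, the gene of BMAL1, had 2.96 and 2.40 FPKM. The promoter of Dbp, a clock output factor, had 1.48 and 3.20 FPKM (ratio 0.462, 0.171 to 1.14) and that of Clock 2.04 and 2.60 (0.782, 0.317 to 1.89), and both intervals include 1. Of 47 windows with at least 10 reads 5 (10.6%) were at least 2 times higher and 3 (6.38%) lower at 4 °C, near or below the 12.8% and 11.0% over all such windows. The 12 windows of the 29 °C list at 5 clock genes had means of 2.33 and 1.76 FPKM (ratio 1.33, 1.03 to 1.72).

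Immediate early and stress genes, which stimuli and tissue handling are known to induce, had 48 windows at 15 of 20 genes in the 4 °C list, with WT means of 1.36 FPKM ± 0.80 at 4 °C and 1.12 ± 0.68 at 29 °C and a ratio of 1.21 (1.03 to 1.43). Of 32 windows with at least 10 reads 9 (28.1%) were at least 2 times higher at 4 °C and 5 (15.6%) lower, beside 12.8% and 11.0% over all such windows. Windows nearest to Fosb (-17.2 kb) and Dusp1, a phosphatase of MAP kinases (43.2 kb), had 3.51 FPKM each at 4 °C. At 29 °C they had 1.41 and 1.21 FPKM. The window nearest to Fos, at 58.8 kb, had 2.96 and 0.81. These windows are intergenic and were assigned to the genes by distance only. The transcript-end window of Junb had 1.48 and 2.80 FPKM (ratio 0.528, 0.192 to 1.35) and that of Klf6 1.3 and 2.80 (0.462, 0.158 to 1.22). Both intervals include 1. In the 29 °C list 11 windows at 8 of these genes had a ratio of 1.82 (1.32 to 2.53), beside 1.71 over that whole list.

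Markers of cell types served only as loci, since these libraries measure no expression and the labelled tissue could not be checked that way. Brown adipocyte markers had 18 windows at 5 of 10 genes in the 4 °C list, with WT means of 1.72 and 1.43 FPKM, and endothelial markers 20 windows at 5 of 5 genes with 1.29 and 1.27. White adipocyte markers had 5 windows at 3 of 5 genes with 1.34 and 1.13 FPKM. The 5 macrophage markers had no window in either list. Skeletal muscle, smooth muscle and pericyte, and nerve and Schwann cell markers had windows at 1 of 5 genes each, with WT values of at most 2.04 FPKM.

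Background also gathered at some loci with many windows. Of 445 genes with at least 5 windows in the 4 °C list, Ergic1 (8 windows) had the highest mean over both pools, 2.32 FPKM ± 1.23 at 4 °C and 2.83 ± 0.99 at 29 °C, followed by Zbtb16 (9 windows) with 2.67 ± 1.73 and 2.38 ± 0.88. Irf2bp2 (11 windows) had 2.17 and 2.22 FPKM. The lowest were 1700012A03Rik (5 windows, 0.524 and 0.530 FPKM), Zfp618 (5 windows, 0.526 and 0.530) and Rgag1 on X (6 windows, 0.563 and 0.510). HA-RevErbα at 4 °C, which bounded WT at 4 °C, averaged 16.2 FPKM at Ergic1, 22.5 at Zbtb16 and 16.2 at Irf2bp2. It averaged 6.30 at 1700012A03Rik, 5.15 at Zfp618 and 6.94 at Rgag1, and its part in the order of loci was not tested. This order was drawn up after the values were seen. Levels within a locus varied widely. At Zbtb16 the window with most HA-RevErbα, at 89.3 kb from the start (53.7 and 51.9 FPKM), had 3.14 and 2.20 FPKM in WT, less than the window at 95.6 kb. Across 17 windows of Col4a2, a chain of basement membrane collagen, WT ran from 0.38 to 3.88 FPKM at 4 °C and from 0.81 to 4.79 at 29 °C, and windows of like HA-RevErbα signal (41.7 and 40.7 FPKM at 4 °C) had 2.59 and 4.39 against 3.88 and 1.80 FPKM.

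Subtracting the WT pools moved the HA-RevErbα ratio mainly where WT was a large part of the signal. Each list bounded WT at its own temperature only, which favours such shifts, so the values that follow describe that choice and are no test of it. Over the 4 °C list the summed HA-RevErbα FPKM was 2.68 times higher at 4 °C before and 3.70 times after subtraction of the WT pool of the same temperature. Over the 29 °C list the ratios were 1.65 and 1.64, and over shared windows 1.82 and 1.87. In windows listed at 29 °C only the ratio was 1.15 before and 0.893 after, on opposite sides of 1. In windows of at least 20 FPKM it was 2 and 2.13 in the 4 °C list and 1.40 and 1.42 in the 29 °C list.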

How the data were processed

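Groups came from the sample titles. The submitters' processing notes name Bowtie2 2.1.0, HOMER 4.10 and mm9, without roles. Per the file headers, the peak lists hold pooled libraries, 1 list per temperature, and the annotation of each window. The deposited FPKM are reads per kilobase per M reads of the pool, with 0.01 added, and the deposited peak score was not used. Per the aligner logs deposited for each library, read counts give its depth, and these counts are of reads of the whole library, not of windows.

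Once 0.01 was taken off, 100% of the FPKM values of a pool lay within 0.01 of a multiple of 1 step, from which reads per window and per pool were recovered. Coordinates are printed as deposited, and their origin (0 or 1) is not stated in the sources used here. Windows were compared by summed reads (Python 3.11.15, scipy 1.17.1). A fold of 2 needed at least 10 WT reads. Intervals were tested on simulated reads with counting error only, which cannot show how they hold under spread between libraries. The members and lists were chosen with earlier results of these data known. Named genes were those of the 10 windows with the highest WT FPKM at each temperature and, at 20 or more WT reads, the 10 largest and 10 smallest ratios of each list, with up to 6 members of each gene list. 1 window was taken per gene. Genes named outside this rule are marked as such or are other windows of these loci. Promoters were matched by gene ID to RefSeq (GRCm38.p6).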

Additional observations from a re-analysis of the deposited data

How the results depend on the processing

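No paired analysis was possible because the 2 WT libraries of each temperature enter the window values only as a pool, and for the same reason no library could be left out. Of 67 repeats of the results under other settings, 35 moved outside the counting interval or past 1.5 times the count, 2 turned the direction and the rest did neither.

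With aligned reads as scale, ratios became 1.13 (4 °C list), 1.89 (29 °C list), 1.60 (shared) and 1.18 (all windows), and by class 1.03 for promoters of the 4 °C list, whose direction turned, 1.13 for its introns, 1.14 for its intergenic windows, and 1.85 and 1.90 for introns and intergenic windows of the 29 °C list. Windows of at least 20 FPKM of HA-RevErbα gave 1.29 (4 °C list) and 1.24 (29 °C list) on that scale. They gave 1.16 and 1.12 with pool reads, the scale of the values that follow. The median over windows was 1.61 in the 29 °C list and 1.05 over all windows, and shared sites read in the window of the 29 °C list gave 1.49. The ratios changed little without X and Y or without the 1% of windows with most WT reads.

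Counts of windows past the fold followed the threshold. In the 4 °C list they were 1762 higher and 1813 lower at a fold of 1.5, 315 and 227 at a fold of 3, 1789 and 1635 with no minimum of reads, 153 and 123 at 20 reads, and 211 and 188 by the counting interval. In the 29 °C list higher windows numbered 345 at a fold of 3, 164 at 20 reads and 281 by the interval, and lower ones 99 at a fold of 1.5, 1 at 3, 120 with no minimum, 3 at 20 reads and 1 by the interval.

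The level of promoters over intergenic windows in the 4 °C list was 1.11 at 4 °C and 1.23 at 29 °C by means, and 1.16 and 1.17 by medians. In windows of at least 20 FPKM it was 0.990 and 1.11, with intervals that include 1. In the 29 °C list it was 1.25 at 4 °C by means and 1.38 by medians. At 29 °C it was 1.10 (0.979 to 1.23) by means and 1 by medians in that list. Too few promoters there reached 20 FPKM to give a value. Depth limits single windows: with a median of 6 reads per pool, only large ratios stand outside counting error.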
